A study of Mus musculus with 6 samples.

Results

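Hepatic glucose handling was followed through 9 genes in livers of fat-fed Balb/c and Balb/cBy mice: the gluconeogenic enzymes Pck1, Fbp1 and Pcx, the glycogen enzymes Gys2 and Pygl, the insulin receptor substrates Irs1 and Irs2, and the regulators Foxo1 and Ppargc1a. They were chosen by name as markers of fasting and feeding, with earlier results of these data known. All 9 were measured, out of 22180 genes. Where a gene had more than 1 probe set with its symbol alone, the one with the highest mean over the 6 arrays was read. The members' levels are log2 values from RMA, which corrects background, normalizes between arrays and summarizes the probes of a set. Such values compare a gene between arrays and not one gene with another.

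The study holds 6 one-colour Affymetrix arrays of total liver RNA, 3 from male Balb/c and 3 from male Balb/cBy mice, which the titles call biological replicates. Mice of both substrains were 20 weeks old, were kept in individual cages with a light and a dark phase of 12 h each, and had eaten a diet with 58% of its energy from fat for 12 weeks, from an age of 8 weeks. Whether the mice were fasted, and at what time of day livers were taken, is not given in the sources used here, nor is the supplier. No lean or chow-fed group was analysed here, so every comparison is between substrains on the same diet. Acads, the gene of the short-chain acyl-CoA dehydrogenase, is deleted in part in the Balb/cBy substrain as it is commonly described, and its transcript was lower on each Balb/cBy array (10.60, 10.79 and 10.93) than on each Balb/c array (11.53, 11.46 and 11.28). All 10 hepatocyte markers were measured, with a mean log2 level between 13.07 and 13.18 on the Balb/c arrays and between 13.14 and 13.24 on the Balb/cBy arrays. Array medians lay between 7.66 and 7.74, with the highest on Balb/cBy replicate 1. The same array received the lowest quality weight from limma (0.467), followed by Balb/c replicate 3 (0.631).

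In the fasted liver, glucagon raises cAMP, and the factors CREB, FOXO1 and the coactivator PGC-1alpha switch on the enzymes that make glucose from lactate, glycerol and amino acids, while glycogen phosphorylase releases glucose from stored glycogen. After a meal insulin acts through its receptor and the substrates IRS1 and IRS2 to activate AKT, which sends FOXO1 out of the nucleus and favours glycogen synthesis. Fat feeding is known to blunt this insulin action in liver. Much of the control of several of these proteins lies in phosphorylation and metabolites, which transcript levels do not show.

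None of the 9 transcripts passed the test between substrains. In limma, fitted over all 22180 genes with Benjamini-Hochberg adjustment, each member had an adjusted p of 0.999, and 0 of the 9 reached an unadjusted p under 0.05, where 3.76% of all genes did. Over all genes 0% passed an adjusted p of 0.05. The groups overlapped for each of the 9 members, while 7.83% of all genes had groups without overlap, 4.32% higher and 3.51% lower in Balb/cBy. Means were lower in Balb/cBy for 7 members and higher for 2, with a median log2 difference of -0.06, beside a median of -0.003 over all genes. Across the 9 members the separate 95% intervals ran from a fold of 0.666 to a fold of 1.52 (Balb/cBy over Balb/c). They are not a joint bound, and they rest on the moderated SE of limma. Without moderation the SE was larger for some members (0.27 against 0.21 for Pck1) and smaller for others (0.07 against 0.10 for Fbp1). With 3 arrays a group, the exact two-sided permutation test cannot give a p below 0.1, and the members gave 0.2 to 1.

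**Figure D1:**
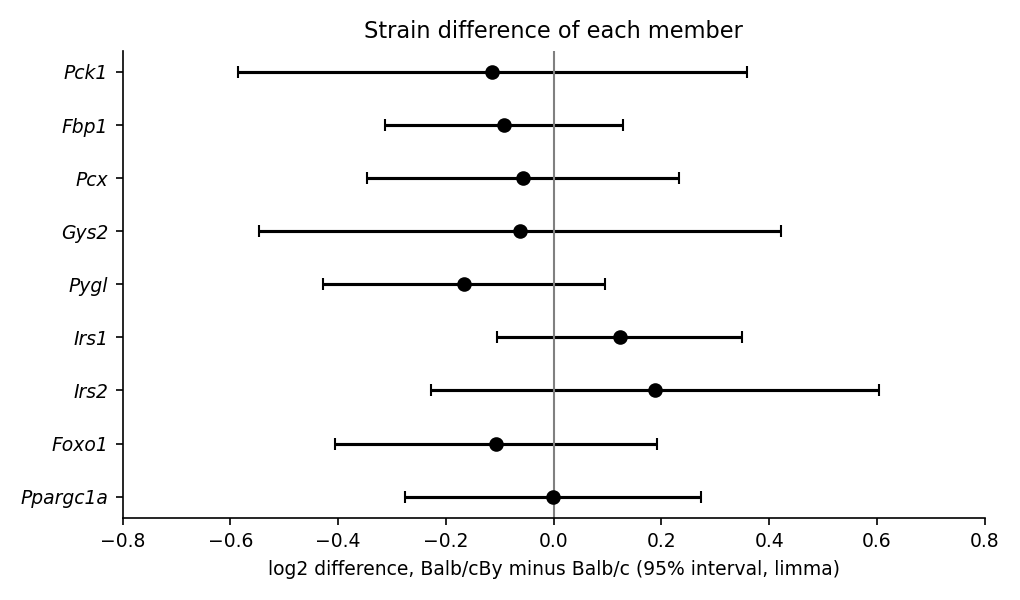
Log2 difference of each member, Balb/cBy minus Balb/c, with its 95% interval from limma (3 arrays a group). The points lie between -0.17 for Pygl and 0.19 for Irs2, and every interval crosses 0.

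Among the 9 members, the widest spread within a substrain was that of Pck1 in Balb/cBy. Each liver was read by 1 array, so liver and array cannot be told apart as the source of such spread. The promoters of Pck1 and Ppargc1a are shown because both genes are classical targets of glucagon and cAMP. Each run is the 250 bases before the RefSeq start of the gene on GRCm38.p6, 5′ to 3′ on the gene's strand, at chr2:173152823-173153072 (plus strand) for Pck1 and chr5:51567726-51567975 (minus strand) for Ppargc1a. Capitals mark ACGTCA, the last 6 letters of the consensus cAMP response element.
Pck1: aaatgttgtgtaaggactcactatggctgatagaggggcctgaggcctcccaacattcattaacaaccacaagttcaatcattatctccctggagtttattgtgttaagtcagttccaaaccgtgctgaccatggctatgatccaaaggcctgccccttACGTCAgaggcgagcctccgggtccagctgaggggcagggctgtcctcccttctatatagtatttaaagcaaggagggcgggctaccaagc
Ppargc1a: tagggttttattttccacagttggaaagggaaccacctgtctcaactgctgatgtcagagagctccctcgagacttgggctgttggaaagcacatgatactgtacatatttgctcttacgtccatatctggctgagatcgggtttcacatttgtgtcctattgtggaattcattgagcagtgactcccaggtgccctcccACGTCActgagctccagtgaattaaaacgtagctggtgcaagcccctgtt
The core begins 91 bases before the start in Pck1 and 50 bases before it in Ppargc1a, on the gene's own strand in both. Searched on both strands, it was found in 2 of the 8 members that had a promoter in the table (9 promoters in all). Counted by promoter and not by gene, it was found in 6.47% of all 32851 promoters of that length. The other 3 members that were lowest on Balb/cBy replicate 1, as Pck1 and Ppargc1a were, had no such match (Fbp1, Pygl and Foxo1). The match is a description of letters and shows no binding, and its relation to the values on any array was not tested.

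Pck1 encodes the cytosolic phosphoenolpyruvate carboxykinase, the enzyme that commits oxaloacetate to glucose. Its log2 level was 12.85, 12.80 and 12.77 in Balb/c replicates 1, 2 and 3, and 12.24, 12.68 and 13.16 in Balb/cBy replicates 1, 2 and 3. The Balb/c livers lay close together, and the Balb/cBy livers held both the lowest and the highest value of the 6, a 1.90-fold range within 1 substrain. The SD was 0.041 in Balb/c and 0.46 in Balb/cBy (n = 3 each). Of all genes, 0.969% had a ratio of Balb/cBy to Balb/c SD at least as large; Pck1 was singled out here after its values were seen, and no test of spread was made. The strain difference was -0.11 (SE 0.21, 95% interval -0.59 to 0.36), and it was 0.11 without Balb/cBy replicate 1. Pck1 is also expressed in fat cells, and of 6 measured adipocyte markers 4 were higher in Balb/cBy. Relative to the mean of the 6 arrays, the adipocyte list stood at -0.28, 0.23 and 0.34 on Balb/cBy replicates 1, 2 and 3 and at 0.05, -0.21 and -0.13 on the Balb/c replicates. Its lowest and highest arrays were thus those of Pck1. The endothelial list had the same lowest and highest arrays, at -0.14 on Balb/cBy replicate 1 and 0.21 on Balb/cBy replicate 3. The part of either list in the Pck1 values was not tested.

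**Figure D2:**
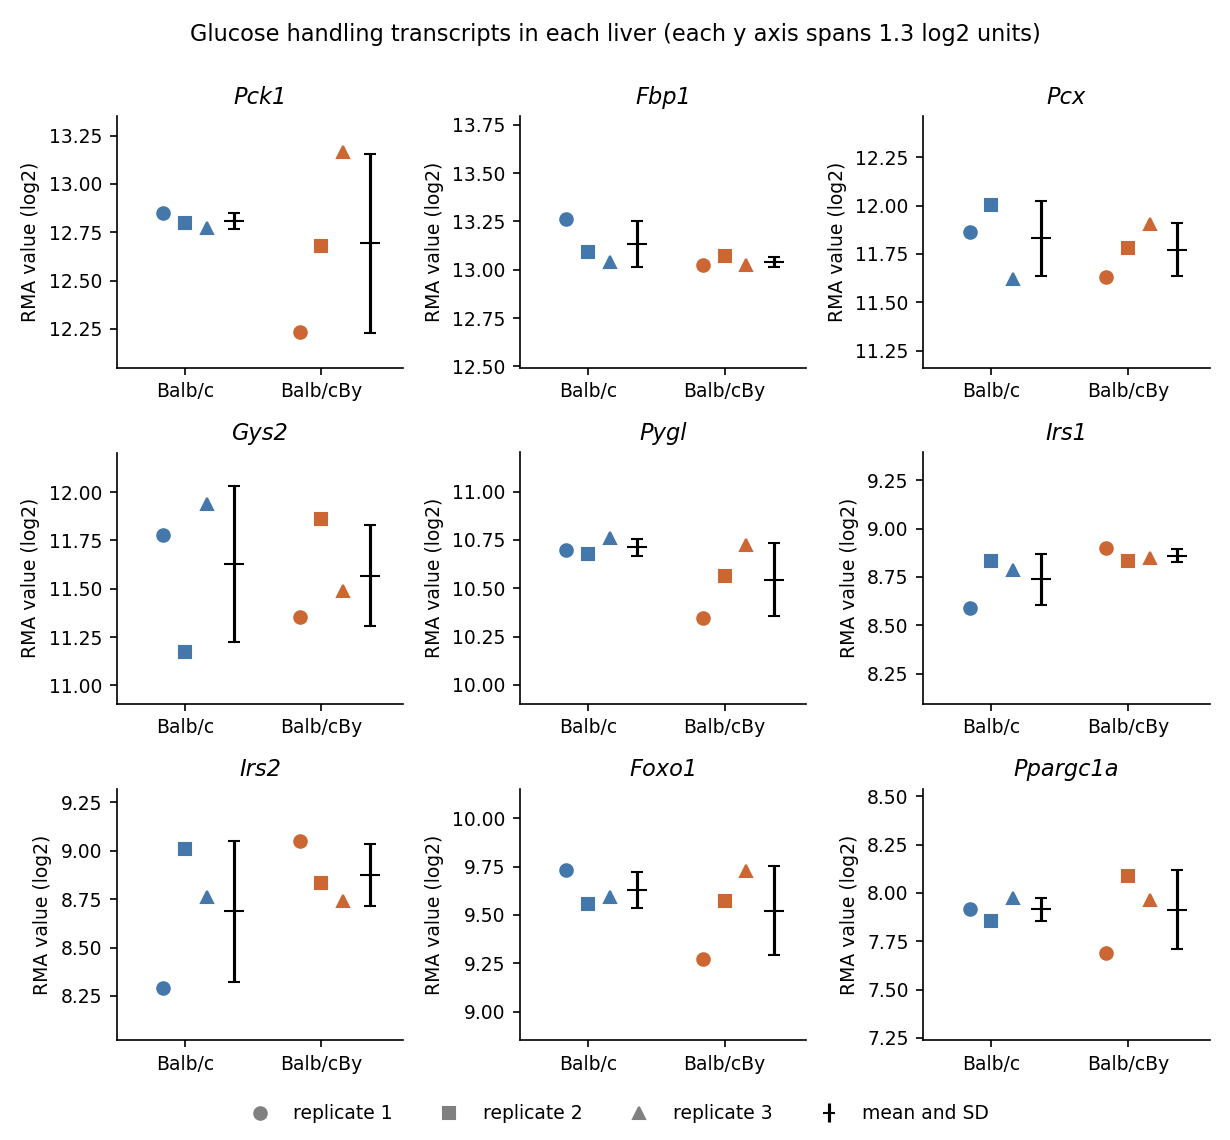
RMA value (log2) of each member on every array, by substrain, with the mean and SD of 3 arrays beside the points; marker shape gives the replicate, and each vertical axis spans the same range. Pck1 is tight in Balb/c (12.77 to 12.85) and wide in Balb/cBy (12.24 to 13.16), and the groups overlap in every panel.

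Fbp1, the fructose-1,6-bisphosphatase that reverses a committed step of glycolysis, was the steadiest of the gluconeogenic members. It stood at 13.26, 13.09 and 13.04 in the Balb/c livers and at 13.02, 13.07 and 13.03 in the Balb/cBy livers. Balb/c replicate 1 was high, and the other 5 arrays lay within a narrow band. The difference was -0.09 (SE 0.10, 95% interval -0.31 to 0.13), and -0.026 without Balb/c replicate 1. Pcx, the mitochondrial pyruvate carboxylase that feeds oxaloacetate into the pathway, stood at 11.87, 12.00 and 11.62 in Balb/c and at 11.63, 11.78 and 11.91 in Balb/cBy. Each substrain had a liver near the bottom of the range and a liver near the top. Its difference was -0.06 (SE 0.13, 95% interval -0.35 to 0.23), and 0.03 or 0.01 without Balb/c replicate 2 or Balb/cBy replicate 1.

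Beyond the members, 26 of 33 listed enzymes and transporters of gluconeogenesis and glycolysis were measured, and 0 passed in either direction. Of them 13 had a higher and 13 a lower mean in Balb/cBy (median difference -0.002, which became 0.09 when replicate 1 of either substrain was left out). Pfkfb3, which makes the allosteric activator of phosphofructokinase, had the smallest p of the list. It stood at 8.68, 8.30 and 8.41 in Balb/c and at 8.39, 9.79 and 9.66 in Balb/cBy, a difference of 0.82 (SE 0.33). Balb/cBy replicates 2 and 3 were high and replicate 1 lay among the Balb/c livers. The malate dehydrogenase Mdh2 differed by 0.27 (SE 0.11) with overlap, and the triose phosphate isomerase Tpi1 by 0.26 (SE 0.11) without overlap, and none of these 3 genes passed (limma adjusted p = 0.999). G6pc, the glucose-6-phosphatase that performs the last step of glucose release, was named for its role after its values were seen. It stood at 12.65, 12.76 and 12.31 in Balb/c and at 12.60, 12.63 and 12.14 in Balb/cBy, a difference of -0.11 (SE 0.17). Replicate 3 was the lowest for G6pc in both substrains, and Balb/cBy replicate 3, where Pck1 was highest, was the lowest of all 6. Slc2a2, the glucose transporter GLUT2 and named likewise, stood at 11.42, 11.10 and 11.73 in Balb/c and at 10.52, 11.49 and 11.40 in Balb/cBy, with Balb/cBy replicate 1 again the lowest.

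Gys2 is the liver glycogen synthase, and Pygl the liver glycogen phosphorylase that breaks glycogen down. Gys2 stood at 11.78, 11.17 and 11.94 in Balb/c and at 11.35, 11.86 and 11.49 in Balb/cBy. Balb/c alone spanned 1.70-fold, from the lowest to the highest of all 6 livers, and the Balb/cBy values fell inside that span. The difference was -0.06 (SE 0.21, 95% interval -0.55 to 0.42), and it turned positive when 1 of 3 arrays was left out: 0.01 for Balb/c replicate 1, 0.09 for Balb/c replicate 3 and 0.04 for Balb/cBy replicate 1. Pygl stood at 10.70, 10.68 and 10.76 in Balb/c and at 10.34, 10.57 and 10.72 in Balb/cBy. As with Pck1, the Balb/c livers were close together (SD 0.044) and the Balb/cBy livers apart (SD 0.19), with replicate 1 lowest and replicate 3 highest of their group. Pygl had the smallest unadjusted p of the 9 members, 0.181 in limma, for a difference of -0.17 (SE 0.11, 95% interval -0.43 to 0.10), and -0.07 without Balb/cBy replicate 1.

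Of 26 further glycogen genes 23 were measured, 11 higher and 12 lower, with a median of -0.005 and 0 passing. Gyg, the glycogenin that primes each glycogen particle, had the smallest p and was higher on every Balb/cBy array (9.24, 9.24 and 9.14) than on any Balb/c array (8.64 to 9.004), a difference of 0.32 (SE 0.12, limma adjusted p = 0.999). Phkg2, a catalytic subunit of phosphorylase kinase, differed by 0.31 (SE 0.16), and Ppp1r3g, a subunit that steers protein phosphatase 1 to glycogen, by -0.15 (SE 0.09). Ppp1r3c, another such subunit, named after its values were seen, varied far more between livers than between substrains. It stood at 10.28, 10.12 and 9.71 in Balb/c and at 10.96, 8.85 and 9.69 in Balb/cBy. Here Balb/cBy replicate 1 was the highest of the 6 livers, the reverse of its place for Pck1 and Pygl.

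The insulin receptor substrates were the pair of members with higher means in Balb/cBy. Irs2, the substrate whose transcript falls under insulin and rises on fasting in liver, stood at 8.29, 9.01 and 8.76 in Balb/c and at 9.05, 8.83 and 8.74 in Balb/cBy. Balb/c replicate 1 lay well below the other 5 livers, and those 5 overlapped between substrains. Its difference was 0.19 (SE 0.18, 95% interval -0.23 to 0.60), and -0.01 without Balb/c replicate 1. Irs1, the paralog, stood at 8.59, 8.83 and 8.79 in Balb/c and at 8.90, 8.83 and 8.85 in Balb/cBy. Balb/c replicate 1 was the lowest here too, and the difference was 0.12 (SE 0.10, 95% interval -0.10 to 0.35), or 0.05 without that liver. Further probe sets gave smaller or opposite values: 0.03 (SE 0.12) for the other Irs1 probe set, and -0.08 (SE 0.10) for a probe set shared by Irs2 and a second gene, which was not used for the member.

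The rest of the insulin receptor pathway had 39 of 41 listed genes measured, with 0 passing, 22 higher and 17 lower, and a median of 0.04 (-0.001 without Balb/c replicate 2 or Balb/cBy replicate 2). Grb10, an adaptor that restrains the insulin receptor, was higher on every Balb/cBy array (7.81, 8.09 and 7.95) than on any Balb/c array (7.65, 7.76 and 7.45), by 0.33 (SE 0.12, limma adjusted p = 0.999). Prkce, a protein kinase C activated by diacylglycerol, differed by -0.21 (SE 0.11) and Socs3, a feedback inhibitor of cytokine and insulin signals, by 0.22 (SE 0.18), both with overlap. Insr, the receptor itself, named for its role after its values were seen, stood at 10.003, 10.27 and 10.52 in Balb/c and at 9.96, 10.27 and 10.20 in Balb/cBy. Its difference was -0.12 (SE 0.15).

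Foxo1 encodes the forkhead factor that insulin inactivates, and Ppargc1a the coactivator that cAMP induces on fasting. Foxo1 stood at 9.73, 9.56 and 9.59 in Balb/c and at 9.27, 9.57 and 9.73 in Balb/cBy. Balb/cBy replicate 1 was the lowest liver, and the other 5 lay within the Balb/c range. The difference was -0.11 (SE 0.13, 95% interval -0.40 to 0.19), and 0.02 without that array. The other Foxo1 probe set gave -0.01 (SE 0.10), at 8.37, 8.34 and 8.14 in Balb/c and 8.25, 8.27 and 8.31 in Balb/cBy. The lowest array of that probe set was thus Balb/c replicate 3. Ppargc1a stood at 7.92, 7.86 and 7.97 in Balb/c and at 7.69, 8.09 and 7.96 in Balb/cBy. The group means were nearly equal (7.92 and 7.91), and Balb/cBy again held both the lowest and the highest liver. Its difference was -0.001 (SE 0.12, 95% interval -0.28 to 0.27), and 0.11 without Balb/cBy replicate 1 or 0.03 without Balb/c replicate 3. The deposited values carry no detection call, so whether this probe set stood above background is unknown.

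Of 42 further genes of glucagon, cAMP and transcriptional control 41 were measured, 17 higher and 24 lower, with a median of -0.03 (0.02 without Balb/cBy replicate 1) and 0 passing. The 3 with the smallest p were lower on every Balb/cBy array than on any Balb/c array, though none passed (limma adjusted p = 0.999). Without overlap were 0 higher and 4 lower genes of these 41, beside 4.32% and 3.51% of all genes. Tfam, which maintains mitochondrial DNA, stood at 8.34, 8.37 and 8.47 in Balb/c and at 7.91, 8.07 and 8.17 in Balb/cBy, a difference of -0.34 (SE 0.10). Cebpa, a factor required for hepatocyte gluconeogenesis, stood at 11.25, 11.30 and 11.48 against 10.83, 11.00 and 11.10, a difference of -0.36 (SE 0.11). Nr0b2, the repressor SHP, stood at 11.28, 11.40 and 11.81 against 11.27, 11.00 and 10.89, a difference of -0.44 (SE 0.16). The receptor Gcgr, named for its role after its values were seen, differed by -0.06 (SE 0.13) and was lowest on Balb/cBy replicate 1, at 10.20.

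Transcripts known to rise on fasting or on feeding were listed separately, since the nutritional state at death is not given. Of 25 measured fasting transcripts 16 had a higher and 9 a lower mean in Balb/cBy (median 0.09), and 0 passed; leaving out Balb/c replicate 3 gave -0.09, and leaving out Balb/cBy replicate 2 gave -0.05. The 3 with the smallest p were Depp1, a FOXO target, at -0.70 (SE 0.19), the asparagine synthetase Asns at 0.39 (SE 0.12) and the thioesterase Acot1 at -0.42 (SE 0.14). Each was without overlap and none passed (limma adjusted p = 0.999). Without overlap were 2 higher and 4 lower genes of these 25, beside 4.32% and 3.51% of all genes. Genes picked by smallest p tend to lack overlap. Igfbp1, a secreted binding protein that insulin represses and FOXO1 induces, was named after its values were seen. It stood at 9.90, 11.22 and 8.32 in Balb/c and at 9.80, 11.40 and 9.16 in Balb/cBy. Replicate 2 was the highest and replicate 3 the lowest in both substrains, and the spread between livers (SD 1.46 and 1.15) exceeded the strain difference of 0.31 (SE 0.75). Pdk4, which shuts pyruvate out of the citric acid cycle and was named likewise, stood at 8.12, 8.26 and 7.51 against 8.74, 7.79 and 7.79. Balb/cBy replicate 1 was its highest liver and Balb/c replicate 3 its lowest.

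Of 24 measured feeding transcripts 11 were higher and 13 lower, with a median of -0.05 and 0 passing. Relative to the mean of the 6 arrays, the list stood at 0.11, -0.03 and -0.02 on the Balb/c arrays and at -0.48, 0.30 and 0.12 on Balb/cBy replicates 1, 2 and 3, and its median was 0.13 without Balb/cBy replicate 1. Balb/cBy replicate 1, the array with the lowest Pck1, Pygl, Foxo1 and Ppargc1a and the lowest quality weight (0.467), was thus the lowest for this list. The same array was also the lowest for the lists of glucagon and cAMP (-0.16), gluconeogenesis and glycolysis (-0.13) and insulin receptor signalling (-0.09). Gluconeogenesis and glycolysis stood nearly as low on Balb/c replicate 3 (-0.11), and insulin receptor signalling was at -0.05 on Balb/c replicate 2. On the fasting list Balb/cBy replicate 1 stood near the mean, at -0.04, and the lowest array there was Balb/c replicate 3, at -0.24. Scd1, the stearoyl-CoA desaturase, differed by -0.91 (SE 0.18, limma adjusted p = 0.637), and Onecut1, a hepatocyte transcription factor, by 0.77 (SE 0.41), with Balb/cBy replicate 2 at 11.38 and the other 5 arrays between 9.26 and 9.73. Over all 6 lists, 171 different genes beside the members were measured, of which 0 passed. Of these, 14 reached an unadjusted p under 0.05, 7 in each direction, which is 8.19% beside 3.76% of all genes, and 14 had groups without overlap, 8.19% beside 7.83%. The lists were chosen with earlier results of these data known, so these shares cannot be read as an excess in the pathway.

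**Figure D3:**
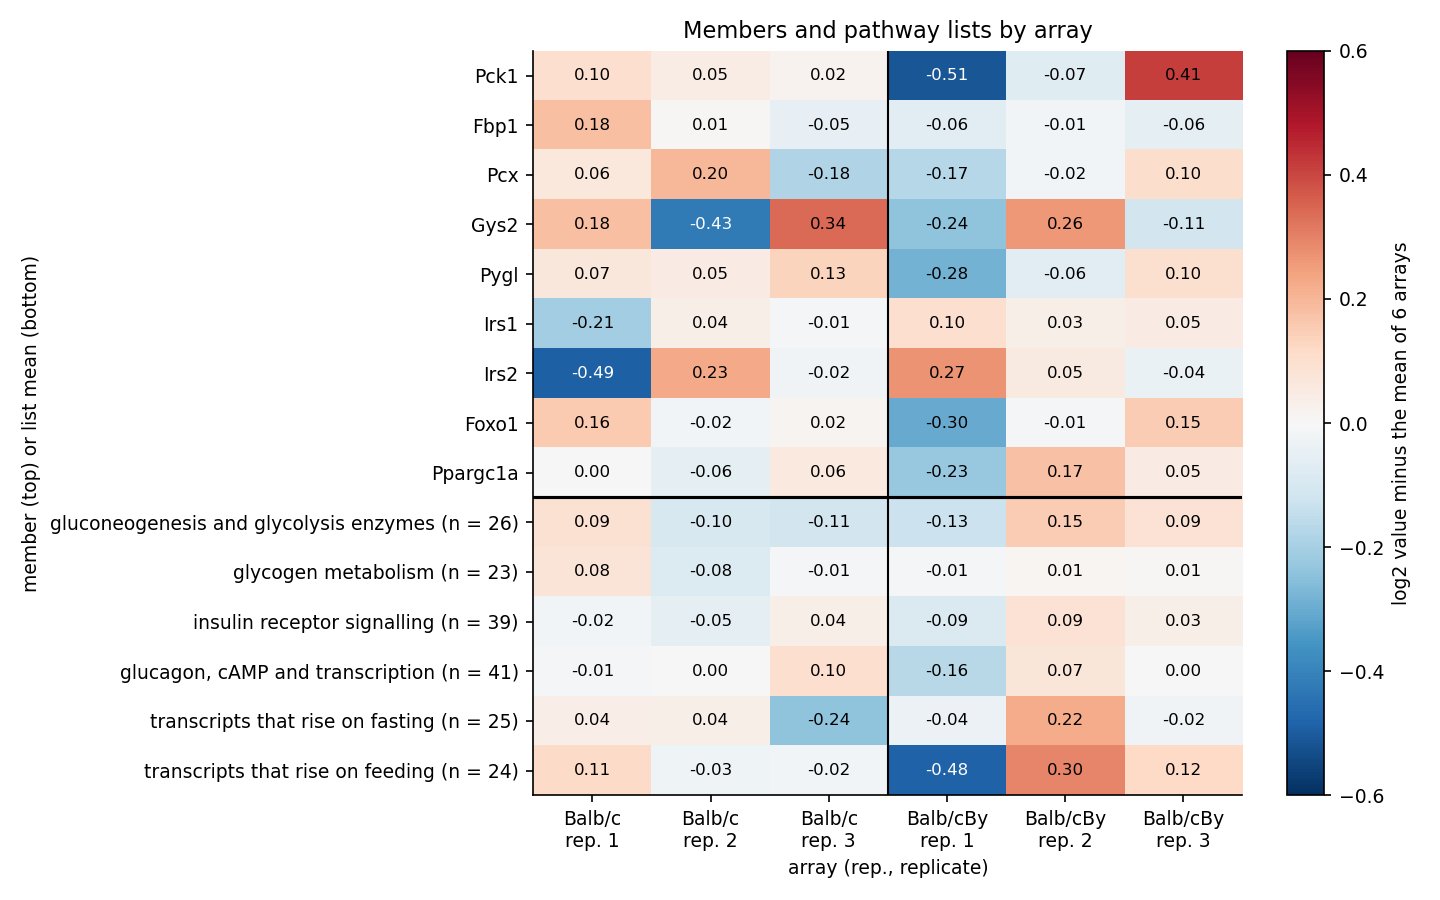
Log2 value minus the mean of the 6 arrays, for each member (top) and for the mean of each pathway list without its members (bottom), with n the measured genes of a list; blue is below and red above the mean. Balb/cBy replicate 1 is the lowest array for 5 of 9 members (for Fbp1 by a small margin) and, at -0.48, for the feeding list. It is also the lowest for the glucagon and cAMP (-0.16), gluconeogenesis and glycolysis (-0.13) and insulin receptor (-0.09) lists. For gluconeogenesis and glycolysis, Balb/c replicate 3 is nearly as low (-0.11).

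Balb/cBy replicate 1 was the lowest of all 6 arrays for 5 members (Pck1, Fbp1, Pygl, Foxo1 and Ppargc1a) and the lowest of its group for 7. For Fbp1 the margin was small (13.022 against 13.026 on Balb/cBy replicate 3). The other Foxo1 probe set was lowest on Balb/c replicate 3. The share of all genes that were lowest on Balb/cBy replicate 1 was not computed. This array was the highest of all 6 for Irs1 and Irs2. Against the mean of the other Balb/cBy arrays it stood at -0.69 for Pck1, -0.38 for Foxo1, -0.34 for Ppargc1a, -0.32 for Gys2 and -0.30 for Pygl, and at 0.27 for Irs2. Hepatocyte markers on the same array stood at -0.02 relative to the mean of the 6 arrays. Periportal hepatocyte markers, the zone where Pck1 is highest in liver, stood at -0.05, -0.03 and 0.10 on Balb/cBy replicates 1, 2 and 3 (9 of 11 measured, 4 higher and 5 lower in Balb/cBy). Pericentral markers stood at -0.06, 0.09 and 0.05 (12 of 13 measured). In bulk liver, fewer cells of a type and less RNA per cell cannot be told apart.

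Markers of other cell types had higher means in one substrain or the other, by list. Macrophage and Kupffer cell markers were at -0.42 on Balb/c replicate 3 and between -0.11 and 0.21 on the other arrays, with 11 of 15 higher in Balb/cBy. Stellate cell markers were higher for 9 of 10, with list levels of 9.15 to 9.46 in Balb/c and 9.37 to 9.63 in Balb/cBy, and neutrophil markers for 6 of 8, at 7.03 to 7.24 and 7.26 to 7.39. Skeletal muscle markers, among them the muscle phosphorylase Pygm, were higher for 6 of 6, at 7.94 to 8.19 and 8.11 to 8.28. Exocrine pancreas markers were lower for 6 of 6, with Balb/c replicate 3 at 0.59 above the mean of the arrays. Lymphocyte markers were lower for 9 of 11, but the mean level of that list ran the other way, at 7.59 to 7.67 in Balb/c and 7.65 to 7.83 in Balb/cBy. At an unadjusted p under 0.05 it held 2 higher and 3 lower genes, and its smallest limma adjusted p was 0.166, the smallest of all genes. Endothelial markers were higher for 5 of 8, and cholangiocyte markers lower for 4 of 6. Of all these marker genes 0 passed, and their part in the members' values was not tested.

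Pairs of members were compared across the 6 livers, 36 pairs in all, and none held after adjustment. Of the Pearson tests, Pck1 and Foxo1 gave the smallest p (Pearson r = 0.93, exact permutation p = 0.0139, adjusted p = 0.3; Spearman rho = 0.77, exact permutation p = 0.103). Without Balb/cBy replicates 1 and 3, the arrays farthest from the median of Pck1, r was 0.70. Irs1 and Irs2 followed (r = 0.93, exact permutation p = 0.0236, adjusted p = 0.3, with rho = 0.66, exact permutation p = 0.175). Without Balb/c replicate 1 and Balb/cBy replicate 1, r fell to 0.23, so the high r depended on those arrays. They were the lowest and highest for Irs1, and leaving them out narrows its range, which by itself can lower r. Pck1 and Pygl gave r = 0.87 (exact permutation p = 0.025, adjusted p = 0.3; rho = 0.66, exact permutation p = 0.175), and 0.69 without the outer arrays. Irs2 and Foxo1 were in exactly opposite rank order, the smallest p of the Spearman tests (rho = -1.0, exact permutation p = 0.00278, adjusted p = 0.1), with r = -0.75 (exact permutation p = 0.118, adjusted p = 0.55) and -0.66 without Balb/c replicate 1 and Balb/cBy replicate 1. Pck1 and Ppargc1a, whose promoters both hold the core, had r = 0.60 (exact permutation p = 0.189, adjusted p = 0.55; rho = 0.09, exact permutation p = 0.919), which became -0.84 without the outer arrays of Pck1. The adjusted p of rho in exact permutation was 0.485 for Pck1 with Foxo1, Pck1 with Pygl and Irs1 with Irs2, and 0.946 for Pck1 with Ppargc1a. Pairs with Foxo1 rest on the probe set read for the member, and the other Foxo1 probe set ordered the arrays differently.

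**Figure D4:**
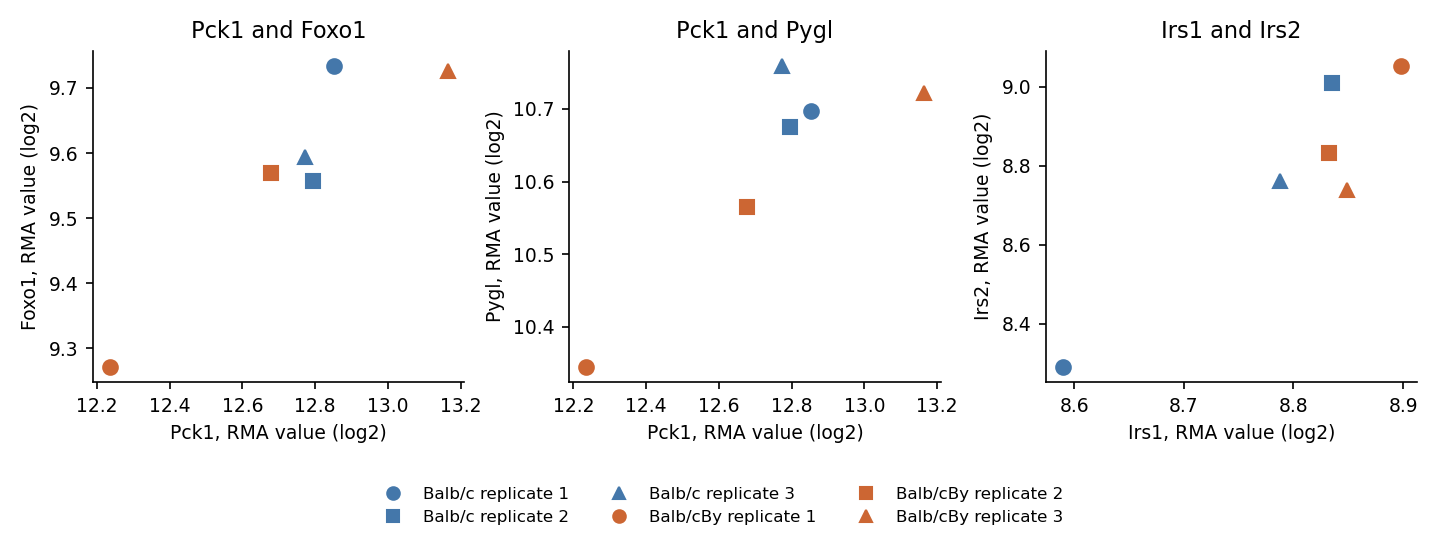
RMA values (log2) of 2 members against each other, 1 point per liver, with colour for the substrain and shape for the replicate. Balb/cBy replicate 1 lies apart at the lower left for Pck1 with Foxo1 and with Pygl, and Balb/c replicate 1 lies apart at the lower left for Irs1 with Irs2.

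Likeness of profiles was measured for the 3 members with the widest range, as the root mean square difference between mean-centred log2 values over the 6 arrays, among 179 other members and listed genes. Nearest to Pck1 were Foxo1 (0.145), its paralog Foxo3 (0.159) and Cebpb, a factor induced by cAMP (0.165), where Pck1 itself spread by 0.275. The other Foxo1 probe set was not compared. Foxo3 stood at 8.93, 8.76 and 8.83 in Balb/c and at 8.38, 8.94 and 8.92 in Balb/cBy, with Balb/cBy replicate 1 the lowest. Nearest to Gys2 were Phkb, a regulatory subunit of phosphorylase kinase (0.0989), Prkaa2, a catalytic subunit of AMP-activated kinase (0.107), and the branching enzyme Gbe1 (0.138), with a spread of 0.28 for Gys2. Gbe1 stood at 11.31, 10.51 and 11.19 in Balb/c and at 10.86, 10.98 and 10.84 in Balb/cBy, so Balb/c replicate 2 was lowest for both genes. Nearest to Irs2 were Irs1 (0.161), Irs4 (0.179) and the lipid droplet protein Plin2 (0.187), with a spread of 0.249 for Irs2.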

How the data were processed

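The authors deposited 1 log2 value per probe set and array, made with RMA per the submitters' processing notes, from 500 ng of Trizol-extracted RNA per the labels' protocols. That the scale is log2 follows from the range of the values. Not given in the sources used here are the version, the probe annotation, any filter and the build. Gene names came from the platform annotation, which can be old. Of 41345 probe sets, 23521 had 1 symbol there, 1814 had several, and 16010 had no name here.

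The difference Balb/cBy minus Balb/c came from limma 3.58.1 (lmFit, then eBayes; R 4.3.3), with no covariate or filter and Benjamini-Hochberg adjustment over 22180 genes at a threshold of 0.05. SE is the moderated standard error. Exact permutation tests were two-sided. The number of arrays limits the precision. The script was tested on simulated data. Promoters are from RefSeq (GRCm38.p6).

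The members and lists were chosen with earlier results of these data known. Named were the 9 members, Acads, the 3 genes of each list with the smallest unadjusted p, and the 3 listed genes nearest in profile to each of 3 members. Genes outside this rule are marked as named after their values were seen. Alternatives were the replicate block, 2 renormalizations, 2 filters on low values, 2 treatments of probe sets, 3 variance or weighting models, a threshold of 0.1, and leaving out each array.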

Additional observations from a re-analysis of the deposited data

How the results depend on the processing

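No member passed in any of the 16 other settings or at an adjusted p of 0.1. The smallest adjusted p was 0.677, with array weights. Of 143 differences of members under these settings 129 kept their direction and 14 turned. With array weights Pck1 was at 0.12 and Ppargc1a at 0.045. Ppargc1a was at 0.016 with recentred arrays and at 0.0031 with a second quantile normalization, and it was left out by the filter on the genes below the median level. Leaving out each array in turn gave -0.35 to 0.11 for Pck1, -0.16 to 0.029 for Pcx, -0.29 to 0.092 for Gys2, -0.010 to 0.35 for Irs2, -0.21 to 0.019 for Foxo1 and -0.089 to 0.11 for Ppargc1a. Fbp1, Pygl and Irs1 kept their direction in every setting. The median of the fasting list ran from -0.087 to 0.17 without single arrays. The cause of these shifts was not tested.

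Deviations from the group means correlated at -0.32, -0.20 and -0.23 for same-numbered arrays, and from 0.015 to 0.22 for differently numbered ones. Such deviations cancel within a group, so these correlations depend on one another and do not settle whether the numbers pair the arrays. With the replicate block 0 members passed, and 0 genes passed, 511 being at an unadjusted p under 0.05, beside 833 without it. Counts over all genes were 12 with array weights, 2 when Balb/c replicate 3 was left out, 3 when Balb/cBy replicate 1 was, and 0 in the other settings run at the threshold of 0.05. Simulated data for Balb/cBy minus Balb/c covered 22180 genes at this number of arrays. There a log2 change of 0.5 was called for 22% of the genes given it and a log2 change of 1 for 80%, so most changes of 0.5 were missed. The simulation changed 50 genes at each of log2 0.5, 1, 2 and 4, and the larger changes ease the adjusted threshold. In the main fit of the real data no gene passed (smallest limma adjusted p = 0.166). The simulated shares therefore do not give the chance of a call in these data.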
